A study of Mus musculus with 13 samples.

Results

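Growing and resting oocytes keep much of their mRNA in a stored, translationally silent state, and the 10 genes described here code for proteins that bind, store, activate or degrade such mRNA. They are Dazl, Ybx2, Cpeb1, Zar1, Lsm14b, Patl2, Btg4, Ddx6, Cnot7 and Pabpc1l, taken by name out of 49585 genes whose estimated reads could be summed in each library. The oocytes came from P5 CD-1 mouse ovaries, kept overnight in culture and exposed to γ-rays at 0.5 Gy or 0.2 Gy. Of the 13 libraries, 8 belong to 0.5 Gy, with duplicates at 0, 1 and 4 h and single libraries at 2.5 and 6 h, and 5 belong to 0.2 Gy, with 1 library for each of the 5 times. Each dose has its own 0 h sample as the control, which the study describes as taken ahead of irradiation, and unirradiated ovaries followed over the later times are not part of the comparisons. The labels also give a generation. The first generation is replicate 1 at 0, 1 and 4 h of 0.5 Gy, the second is replicate 2 of these times with the 2.5 and 6 h libraries, and the third is all of 0.2 Gy. What a generation stands for is not stated, and at 0.2 Gy dose and generation cannot be told apart. The study's methods give 4 pooled ovaries for a time point and separate oocytes from follicular cells by trypsin and repeated spinning, so a library is a pool. Since the labels do not name separate litters, p-values measure the spread between these pools only.

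In the stored particles of an oocyte, Ybx2 (MSY2) coats mRNA, Ddx6 is the RNA helicase of repressed messenger particles, and Lsm14b, Patl2 and Zar1 are partners in such particles. Cpeb1 binds the cytoplasmic polyadenylation element of 3′ UTRs and controls the length of the poly(A) tail, and Dazl is a germ cell protein that binds 3′ UTRs and promotes translation. Pabpc1l is the poly(A)-binding protein of oocytes and early embryos. Cnot7 is a catalytic subunit of the CCR4-NOT deadenylase, and Btg4 is the adaptor that brings this enzyme to maternal mRNA when meiosis resumes.

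The libraries held 15709549 to 30430104 estimated reads, and the smallest was replicate 2 of 0 h at 0.5 Gy. All 15 oocyte markers, among them Ddx4, Gdf9 and Zp3, were measured, and together they reached 5930 to 8560 CPM (reads scaled to the library's TMM-adjusted size). All 11 granulosa cell markers were also present at 1500 to 2370 CPM in sum, all 8 stroma markers at 2040 to 3860 CPM and the 5 red blood cell markers at 860 to 6140 CPM. The 4 endothelium and 5 macrophage markers summed to 62.7 to 125 and to 12.2 to 39.3 CPM. The 5 granulocyte markers summed to 446 CPM in replicate 2 of 0 h and to no more than 15.6 CPM in the other libraries of 0.5 Gy. Ubiquitous genes such as Ddx6 and Cnot7 can thus come from several cell types, and in such bulk RNA fewer cells of a type and less RNA per cell cannot be told apart.

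Levels of different genes were compared as TPM, which is scaled to transcript length. Over all transcripts of a gene, Cnot7 was highest at 82.3 ± 22.2 TPM (SD, n = 13 libraries), followed by Cpeb1 at 53.7 ± 26.3 TPM and Btg4 at 36.8 ± 6.85 TPM. Dazl stood at 20.2 ± 5.0 TPM, Ybx2 at 19.6 ± 3.68 TPM, Lsm14b at 17.1 ± 3.65 TPM and Zar1 at 12.8 ± 5.79 TPM. Ddx6 had 7.09 ± 0.943 TPM, Pabpc1l 2.34 ± 1.18 TPM and Patl2 1.09 ± 0.457 TPM. The ranges of neighbours in this order overlapped, apart from Ddx6 and Pabpc1l, and Dazl exceeded Ybx2 in only 4 of 13 libraries. Transcripts of at most 400 bases took 67.6% to 72.4% of all TPM in a library although they held only 3.63% to 5.07% of the reads, so a short annotated fragment weighs heavily on this scale. Restricting the sum to transcripts annotated as protein-coding put Btg4 first at 36.7 ± 6.87 TPM and Cpeb1 next at 24.2 ± 8.46 TPM. Dazl followed at 20.2 ± 5.0 TPM and Cnot7 at 18.5 ± 4.04 TPM. The Btg4 sum includes Btg4-204, a coding form of 352 bases. This form had a mean of 9.91 TPM on 13.1 to 173 reads, so the Btg4 level rests partly on a short transcript. On that scale Dazl exceeded Cnot7 in 8 of 13 libraries and Cnot7 exceeded Lsm14b in 7 of 13, so these 3 genes had no fixed order. Ybx2 dropped to ninth with 0.879 ± 0.329 coding TPM, and Pabpc1l was last with 0.364 ± 0.225 coding TPM. These coding values depend on how Salmon divided the reads of a gene among its forms, which was not checked. The low value of Ybx2 is therefore uncertain, and it does not measure the protein (Msy2), which the study used as an oocyte marker.

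**Figure D1:**
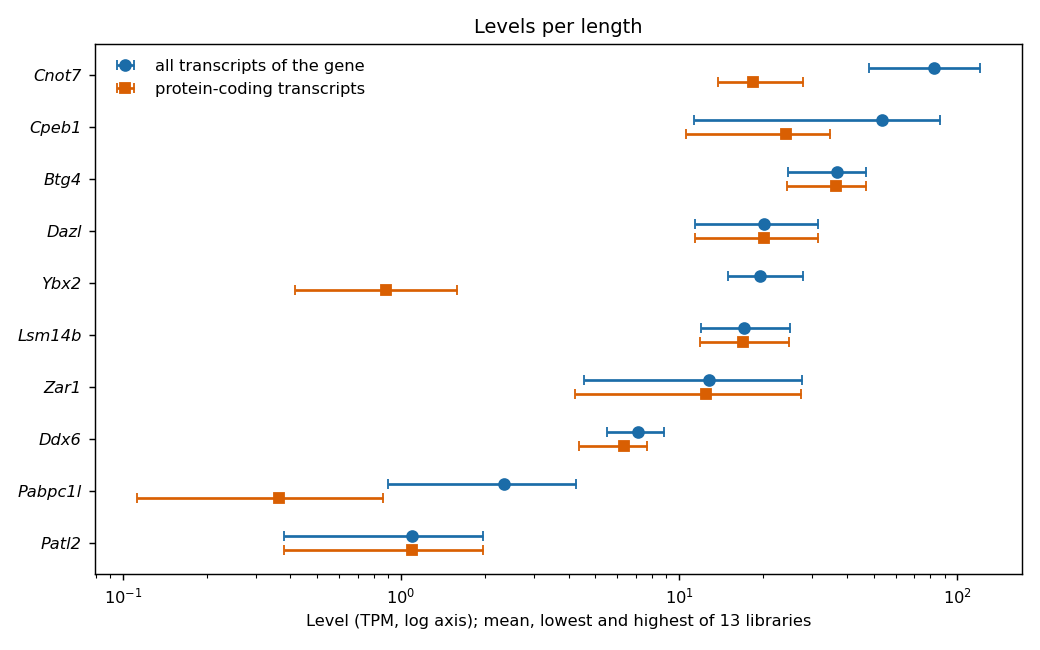
Level of each gene in TPM on a log axis, as the mean (symbol) with the lowest and highest of 13 libraries (bars), for all transcripts of the gene and for its protein-coding transcripts. The 2 sums nearly coincide for Dazl, Lsm14b, Btg4, Zar1 and Patl2, and lie far apart for Ybx2 (19.6 against 0.879 TPM), Cnot7 (82.3 against 18.5 TPM) and Pabpc1l (2.34 against 0.364 TPM).

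The transcripts behind these levels differed from gene to gene. For Ybx2, the retained-intron transcript Ybx2-204 of 679 bases held 84.5% of the gene's TPM (74.6% to 92% over the libraries) and Ybx2-203, another retained-intron form, held 10.9%, while the 3 coding transcripts together made up the small remainder. Ybx2 had 284 to 940 reads per library, of which 251 to 733 were placed on Ybx2-204 and 15.4 to 55.9 on the coding Ybx2-201. For Cnot7, the 312-base non-coding transcript Cnot7-204 held 67.7% of TPM on 216 to 591 reads, whereas the coding Cnot7-203 held 17.5% of TPM on 2160 to 5250 reads. Dazl-201 and Patl2-201 are the only transcripts of their genes in the files, and Lsm14b-201 held 93% of TPM. Ddx6 was carried by Ddx6-203 (82.1%) and the retained-intron Ddx6-202 (11%). Zar1 was split between the coding Zar1-203 (55.2%) and Zar1-201 (42.4%), and Btg4 between the coding Btg4-201 (55%), Btg4-204 (26.3%) and Btg4-203 (15.2%). Pabpc1l had no dominant form, since Pabpc1l-204 held 32.8%, Pabpc1l-202 26.8%, the coding Pabpc1l-201 16.9%, Pabpc1l-203 13.3% and Pabpc1l-205 10.2%, on 45 to 226 reads for the whole gene.

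Several of these genes have a paralog of broader expression, and the balance between them was not the same in each family. Cpeb1 with 24.2 coding TPM lay above Cpeb2, Cpeb3 and Cpeb4 (0.606, 2.38 and 2.31 coding TPM) in 13 of 13 libraries. Btg4 lay above Btg1, Btg2 and Btg3 (12.4, 14.7 and 1.23 coding TPM) in all 13, and Zar1 above Zar1l (1.4 coding TPM) in all 13. Dazl exceeded Boll, a member of the same germ cell family, in 13 of 13 libraries by coding TPM (20.2 against 0.611) and in 11 of 13 by total TPM (20.2 against 11.1). The opposite held for Pabpc1l and Patl2, which lay below Pabpc1 (52.7 ± 12.6 coding TPM) and Patl1 (3.03 ± 0.661 coding TPM) in all 13 libraries. Ybx1 also exceeded Ybx2 in every library, by all transcripts (45.5 against 19.6 TPM) as well as by coding ones (32.6 against 0.879 TPM). Ybx2 exceeded Ybx3 in 8 of 13 libraries by all transcripts (19.6 against 18.1 TPM) and in 0 by coding ones (0.879 against 13.7 TPM). The coding value of Ybx2 carries the uncertainty given with the levels. Lsm14b and Lsm14a were close, at 16.9 and 11.6 coding TPM, with Lsm14b higher in 11 of 13 libraries. Cnot7 and Cnot8 changed places with the scale, since Cnot7 was higher in all 13 libraries by coding TPM (18.5 against 13.6) and lower in all 13 by total TPM (82.3 against 152).

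On GRCm38, Dazl lies at chr17:50279395-50293636, Ybx2 at chr11:69935796-69941605, Cpeb1 at chr7:81347026-81455465, Zar1 at chr5:72576806-72581254, Lsm14b at chr2:180024987-180035465 and Patl2 at chr2:122120108-122186189. Btg4 lies at chr9:51060901-51119875, Ddx6 at chr9:44604892-44640731, Cnot7 at chr8:40492540-40515847 and Pabpc1l at chr2:164025450-164050538. Of the stretches of 30 bases in their transcripts, none were found in other genes of the files for Dazl, Ybx2, Patl2, Btg4 and Pabpc1l. Zar1 shared 14.2% of its stretches with other genes, most often with Gm15847. Ddx6 shared 5.713%, most often with Gm13410, and Cnot7 3.673%, most often with Zdhhc2, which lies on the opposite strand and overlaps 247 exonic bases. The counts of these 3 genes are therefore less certain. The sources used here do not state that strand was used in counting.

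Of all comparisons of these genes, the lowest unadjusted p belonged to Cpeb1 between the generations at 0.5 Gy. In the first generation Cpeb1 stood at 122, 140 and 105 CPM at 0, 1 and 4 h, and in the second at 301, 292 and 315 CPM at the same times, with 290 CPM at 2.5 h and 259 CPM at 6 h. The 5 libraries of the third generation held 198, 232, 231, 297 and 214 CPM from 0 to 6 h. All 3 first-generation libraries thus lay below each of the other 10. This pattern was not counted over all genes, so how common it is cannot be said, and Spg21, described below, had it as well. The log2 fold change of the second against the first generation, from the 6 matched libraries with time in the model, was 1.34 (SE 0.18, 95% interval 0.92 to 1.75). Its unadjusted p was 8.49e-05 and its Benjamini-Hochberg adjusted p in edgeR's quasi-likelihood test was 0.0622, short of the call, for which the adjusted p had to be below 0.05 and the log2 fold change beyond 1 in either direction. By that rule 0 of 10 genes were called, where 0.0924% of the 22715 genes tested were. DESeq2 (adjusted p 4.3e-07) and limma-voom (0.0424) did call Cpeb1, where they called 0.625% and 0.163% of all genes. EdgeR called it without replicate 1 of 0 h (adjusted p 0.0153, with 0.496% of genes called) or replicate 2 of 0 h (0.0142, 0.505%). It did not call it without replicate 1 or 2 of 1 h (adjusted p 0.207 and 0.143) or of 4 h (0.0981 and 0.0909). In the 6 matched libraries alone, the 2 generations did not overlap, with the second higher, for 7.92% of genes, and with a mean over 2 times higher for 1.98%. The oocyte markers summed to 6310 to 7110 CPM in the first generation and to 7100 to 8100 CPM in the matched libraries of the second, and the granulosa cell markers to 1700 to 2340 and 1530 to 2370 CPM, and their part in the difference was not tested.

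Both main coding forms of Cpeb1 lay higher in the second generation, without overlap on the TPM scale. Cpeb1-203 was at 7.6 to 8.17 TPM in the first generation, 13.5 to 16.8 TPM in the second and 8.48 to 15.6 TPM in the third. Cpeb1-201 was at 2.5 to 5.76 TPM in the first, 12.5 to 18.4 TPM in the second and 9.42 to 16.1 TPM in the third. Its share of the reads of both forms was 24.1% to 43% in the first generation, against 44.2% to 55.2% in the second and 48.9% to 58.3% in the third. Cpeb1-206, a non-coding transcript of 326 bases, had under 0.5 reads (at most 1e-05) in all 3 libraries of the first generation, with 78.6 to 298 reads in the second and 103 to 213 in the third. Against a floor of 3 reads per library it was at least 63.4-fold higher in the 3 matched libraries of the second generation, at 7.59 ± 3.18 CPM (SD, n = 3).

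Near-absence from the first generation alone was not particular to Cpeb1-206. Of 124983 transcripts with reads, 19574 had at least 50 in each of the 10 libraries outside the first generation. Of these 19574, 26 were under 0.5 reads in the 3 first-generation libraries (0.0208% of the 124983). Cpeb1-206 was the single one of the 10 genes. Transcripts of at most 400 bases as a class held 4.58% to 5.07% of the reads in the first generation and 3.63% to 4.6% in the second. The number of these with at least 50 reads was 1441 to 1580 in the first generation and 1779 to 1900 in the second, apart from 1150 in the shallow replicate 2 of 0 h, and 1675 to 2175 in the third. The part of these shifts in the values of Cpeb1-206 was not tested. In a test of all 56656 transcripts none was called by edgeR, with 3809 at an unadjusted p under 0.05, and limma-voom called 3 (0.0053%). In that test Cpeb1-206 had an unadjusted p of 0.00375 and an adjusted p of 0.718, and Cpeb1-201 had a log2 fold change of 1.85 (SE 0.32) with an adjusted p of 0.718.

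**Figure D2:**
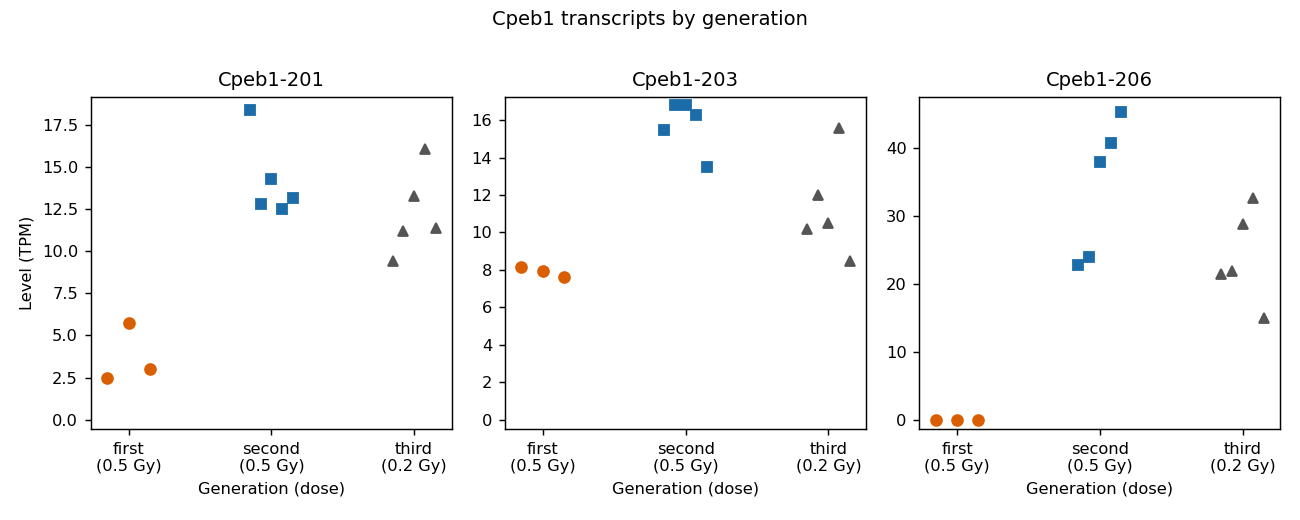
Level in TPM of 3 Cpeb1 transcripts (panels) in each library (points), grouped by generation, on linear axes that start near 0 and differ between panels. Cpeb1-206 lies at no more than 1e-06 TPM in the first generation and at 22.7 to 45.3 TPM in the second, and Cpeb1-203 at 7.6 to 8.17 TPM against 13.5 to 16.8 TPM.

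Of the other genes, none was called between the first and the second generation. Zar1 was at 36.5, 24.6 and 14.6 CPM at 0, 1 and 4 h in the first and at 40.5, 35.5 and 38.8 CPM in the second, with a log2 fold change of 0.71 (SE 0.28, unadjusted p = 0.0361, edgeR adjusted p = 0.461). Pabpc1l and Patl2 had fold changes of 1.04 and 1.01 on the log2 scale with wide intervals (-0.13 to 2.21 and -0.28 to 2.29). Lsm14b was at -0.40, Ddx6 at -0.26, Btg4 at -0.20, Ybx2 at -0.14, and both Dazl and Cnot7 at 0.22. The 2 genes at an unadjusted p under 0.05, Cpeb1 and Zar1, compare with 10.2% of all genes. The median log2 fold change was 0.22 over the 10 genes and 0.0 over all genes.

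The time course asks whether irradiation was followed by a change in these mRNAs. At 0.5 Gy, edgeR called 0 of the 10 genes at 1, 2.5, 4 or 6 h against 0 h, and the share of all 28468 genes called was likewise 0%. At an unadjusted p under 0.05 there were 0 of 10 at 1, 2.5 and 4 h and 1 at 6 h, against 3.98%, 5.59%, 5.82% and 5.94% of all genes. DESeq2 and limma-voom called none of the 10 at any of these times, where DESeq2 called 0.0431%, 0.179%, 0.267% and 0.297% of 46431 genes and limma-voom 0% of 28468. The 4 late libraries (2.5, 4 and 6 h) were then pooled against the 4 early ones (0 and 1 h). Each of the 3 tools again called 0 of 10. EdgeR called 0.128% of 22588 genes, DESeq2 0.431% of 46431 and limma-voom 0.0753% of 22588. In edgeR 9.06% were at an unadjusted p under 0.05. Pooled times are not replicates of a condition. Generation was not balanced in these comparisons, since the 2.5 and 6 h libraries are second generation only, while 0, 1 and 4 h mix both. The median log2 fold change of the 10 genes was -0.27, with 8 of 10 below 0, and that of all genes was -0.02, with 51.6% below 0. For 7 of the 10 genes the late mean lay below the early one both within the first generation, which has 1 late library, and within the second, as it did for 27.2% of all genes. Some of these ratios were near 0, such as -0.04 for Cpeb1 in the second generation and -0.05 for Ddx6 in the first. The oocyte markers summed to 6310 to 8100 CPM early and 6310 to 8470 CPM late and the stroma markers to 2800 to 3860 and 2390 to 3110 CPM. The red blood cell markers summed to 2370 to 3530 CPM early and 2680 to 6140 CPM late. All 5 granulocyte markers were lower late (median -3.82, 5 of 5 at an unadjusted p under 0.05 in edgeR). They summed to 5.82 to 446 CPM early (median 14.1), the highest in replicate 2 of 0 h, and to 6.04 to 11.2 CPM late. The part of these cells in the values was not tested.

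Among the translational regulators, Dazl had its early libraries at 212, 339, 261 and 228 CPM and its late ones at 215, 186, 205 and 175 CPM. The late values sat lower, apart from the 2.5 h library, which exceeded replicate 1 of 0 h. The log2 fold change was -0.42 (SE 0.17, 95% interval -0.79 to -0.04), with an unadjusted p of 0.0312 and an edgeR adjusted p of 0.5. The log2 ratio of the late to the early mean was -0.35 within the first generation and -0.52 within the second. Without replicate 2 of 0 h, the library with the granulocyte signal, the fold change was -0.26 with an adjusted p of 0.654. Cpeb1 had a pooled value of 0.18 (95% interval -0.62 to 0.97) and of 0.85 with an offset for effective length, whereas the log2 ratios within the generations were -0.32 and -0.04. Ybx2 ranged from 19.3 to 30.4 CPM early and from 22.4 to 32 CPM late, and its fold change of -0.03 (-0.46 to 0.41) was the smallest in size.

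Of the partners in stored particles, Ddx6 had the narrowest interval and Patl2 the widest. Zar1 had 24.6 to 40.5 CPM early and 14.6 to 38.8 CPM late (-0.32, 95% interval -0.92 to 0.27), a value that was -0.66 with an offset for effective length and -0.10 without replicate 1 of 4 h. Lsm14b had 76.6 to 154 CPM early and 79.3 to 116 CPM late (-0.35, -0.82 to 0.13), and its lowest early library was replicate 2 of 0 h, the shallow one with the granulocyte signal. Ddx6 was the steadiest of the 10 over all libraries, with a coefficient of variation of 12.9%, and its fold change was -0.22 (-0.54 to 0.11). Patl2 rested on 69 to 371 reads and spread over 4.94-fold between its lowest and highest library, so its value of -0.42 had an interval from -1.45 to 0.60. Pabpc1l varied most of all, with a coefficient of variation of 56.5% and an interval from -0.99 to 1.16 around 0.08.

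Among the deadenylation factors, Btg4 had its lowest level in the last library of the 0.5 Gy course. The duplicates of 0 h held 159 and 113 CPM, those of 1 h 131 and 117 CPM and those of 4 h 101 and 100 CPM, while the single libraries of 2.5 h and 6 h held 114 and 64.1 CPM. The 6 h library, of the second generation like the 0 h library at 113 CPM, lay below every other library of either dose, a ranking that was not counted over all genes. Its log2 fold change at 6 h was -1.04 (SE 0.34, 95% interval -1.80 to -0.27), with an unadjusted p of 0.0137 and an edgeR adjusted p of 0.776, on 1 library at 6 h that took its spread from the duplicates. Late against early the value was -0.46 (SE 0.19, -0.88 to -0.03, unadjusted p = 0.0361, edgeR adjusted p = 0.51). With Dazl it made up the 2 of 10 genes at an unadjusted p under 0.05, both lower, where 4.29% of all genes were lower by that measure. That count was 0 without the 6 h library, where Btg4 was at -0.30, and 0 without replicate 1 of 1 h. Cnot7, the enzyme subunit that Btg4 recruits, was at 151 CPM at 6 h against 181 and 275 CPM at 0 h and had a late against early value of -0.10 (-0.53 to 0.33).

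**Figure D3:**
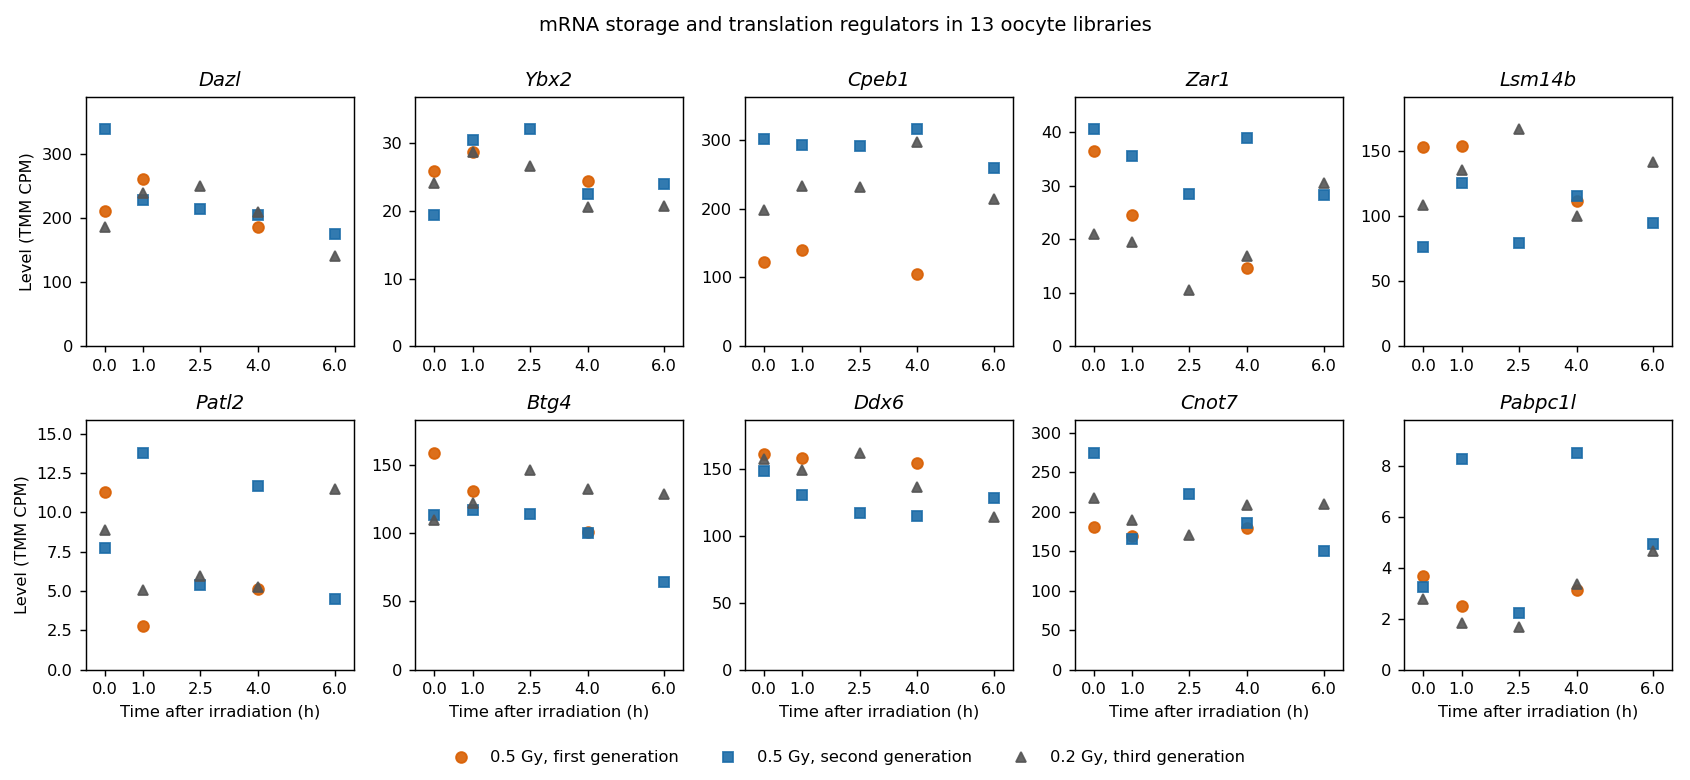
Level in CPM of each of the 10 genes (panels, linear axes from 0 that differ between panels) against hours after irradiation, 1 point per library, coloured by generation and dose. The first-generation points of Cpeb1 sit at 105 to 140 CPM below all others. The 6 h point of Btg4 at 0.5 Gy (64.1 CPM) is the lowest of its panel while that at 0.2 Gy is at 129 CPM. Neither pattern was counted over all genes.

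At 0.2 Gy, edgeR, DESeq2 and limma-voom called 0 of 10 genes in 4 and 6 h against 0 and 1 h, with 0 of 10 at an unadjusted p under 0.05 in edgeR. EdgeR called 0.0462% of 28162 genes, DESeq2 0.319% of 47623 and limma-voom 0.0462% of 28162. In edgeR 7.29% were at an unadjusted p under 0.05. With a single library at each time, the spread was shared with 0.5 Gy. The oocyte markers summed to 5930 to 8060 CPM early and 7670 to 8560 CPM late, and their part was not tested. Btg4 was at 110 and 122 CPM early and 132 and 129 CPM late, a log2 fold change of 0.16 (95% interval -0.36 to 0.69). Dazl was at 187 and 240 CPM early and 210 and 141 CPM late (-0.28, -0.84 to 0.27), with -0.62 when the 4 h library was left out and -0.01 when the 6 h library was. Ybx2 (24.1 and 28.7 against 20.6 and 20.7 CPM) and Ddx6 (157 and 149 against 136 and 114 CPM) had late libraries below early ones, with -0.36 (-0.90 to 0.18) and -0.29 (-0.72 to 0.14). Not overlapping in that direction is common with 2 libraries a side and was seen in 26.4% of all genes. Pabpc1l had the largest value, 0.80 (-0.54 to 2.14), from 2.77 and 1.83 CPM early to 3.38 and 4.65 CPM late.

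The difference between the doses was tested directly, as the change at 0.2 Gy minus that at 0.5 Gy. EdgeR called 0 of 10 genes, against 0.032% of all genes. DESeq2 and limma-voom also called 0 of 10, against 0.281% and 0% of all genes. Btg4 had the largest difference, 0.72 (SE 0.31, 95% interval 0.05 to 1.38), with an unadjusted p of 0.0371 and an edgeR adjusted p of 0.596. It was the only one of the 10 genes under 0.05 before adjustment, where 8.14% of all genes were. That count was 0 with an offset for effective length, without any 1 of the 4 libraries of 0.2 Gy, and without replicate 1 of 0 h, replicate 1 of 1 h or the 6 h library of 0.5 Gy. For the remaining genes the intervals included 0, the lowest bound being -1.26 and the highest 2.44. At 0 and 1 h alone, the third generation was compared with the first and second. EdgeR called 0 of 10 genes against 0.121% of all genes, with 0 of 10 at an unadjusted p under 0.05 (14.9% of all genes). DESeq2 and limma-voom called 0 of 10 as well, against 0.846% and 0.355% of all genes. Zar1 was at 20.9 and 19.5 CPM in the third generation, below all 4 libraries of 0.5 Gy at these times (24.6 to 40.5 CPM), with a log2 fold change of -0.76 (-1.55 to 0.03). The share of all genes that lay without overlap on the lower side here was 11.2%.

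**Figure D4:**
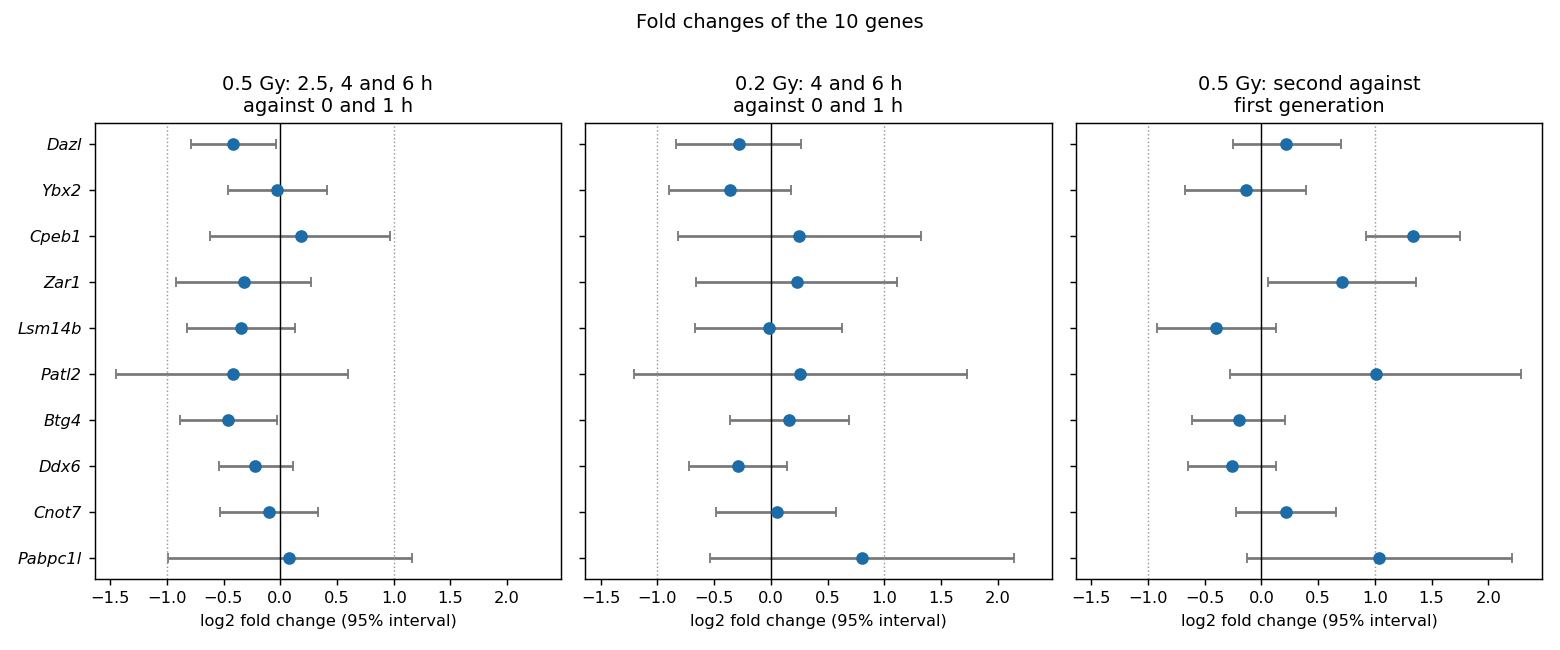
Log2 fold change with its 95% interval for each of the 10 genes, late against early at 0.5 Gy (left), late against early at 0.2 Gy (middle) and second against first generation at 0.5 Gy (right); dotted lines mark a log2 fold change of 1 in either direction. Cpeb1 at 1.34 on the right is the point farthest from 0, and the intervals of Dazl and Btg4 on the left end just below 0.

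Around these genes, 4 lists cover the wider machinery of mRNA storage and turnover. No gene on them was called late against early at 0.5 Gy by edgeR, where 0.128% of all genes were. At an unadjusted p under 0.05 were 4, 3, 2 and 4 genes of the storage, deadenylation, decay and polyadenylation lists, beside 9.06% of all genes, and the numbers below 0 stand beside 51.6% of all genes. Among 28 storage and repression genes 17 were below 0 (median -0.15), the ends being Nanos1 (-0.78), a germ cell repressor of translation, and Boll (-0.77), against Stau1 (0.24), a double-stranded RNA-binding protein, and Eif4enif1 (0.30), the eIF4E transporter. Among 18 deadenylation genes 8 were below 0 (median 0.02). Here Btg2, a relative of Btg4 and a known p53 target, lay at 58.5 to 100 CPM early and 148 to 229 CPM late, a log2 fold change of 1.20 (SE 0.21), and an edgeR adjusted p of 0.0649 that just missed the call. At 0.2 Gy Btg2 was at 54.3 to 84.2 CPM early and 108 to 160 CPM late (0.95, edgeR adjusted p = 0.636). The other ends of this list were Cnot11 (-0.62), Cnot6l (-0.60) and Cnot10 (0.32), which are subunits of the CCR4-NOT complex. Among 16 decapping and decay genes 9 were below 0 (median -0.05), with Dcp2 (-0.48), the decapping enzyme, and Tut4 (-0.30), a terminal uridylyltransferase, against Edc3 (0.30) and Zfp36 (0.68), which binds AU-rich elements. Among 21 polyadenylation and cap-dependent translation genes 14 were below 0 (median -0.13), with Pabpn1l (-0.70) and Paip1 (-0.47) against Cpsf1 (0.31) and Cpsf4 (0.57). At 0.2 Gy no gene of these lists was called either, where 0.0462% of all genes were. The medians were 0.22, 0.16, 0.29 and 0.19 in the same order of lists, beside -0.03 over all genes. Markers of other cells had medians of 0.37 (granulosa), 0.54 (stroma), 0.73 (red blood cell), 0.22 (granulocyte) and 0.15 (endothelium) in this comparison. The macrophage markers went the other way, with a median of -0.33 and 4 of 5 below 0, and the oocyte markers had a median of 0.08. The 0 and 1 h libraries of 0.2 Gy also stood apart, with 42408 and 42621 genes detected against 35837 to 39052 in the other libraries. The part of either in the list medians was not tested.

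Since Cpeb1 acts through a short element near the 3′ end of mRNAs, the last 100 bases of the 3′ UTR were searched on the transcript strand for TTTTAT and TTTTAAT in the coding transcript with the highest TPM of each gene. Only coding transcripts with at least 100 bases after the stop codon were eligible. Of 8581 genes with such a window and at least 1 TPM, 19.7% held an element. Ybx2 and Pabpc1l were left out, since none of their coding forms reached a mean of 1 TPM (at most 0.383 and 0.364 TPM). Of the 8 of the 10 genes that met both conditions, Btg4 was the only one that held it, in Btg4-201, starting 67 bases from the end. The site is shown with the element in capitals.
Btg4: agataaatccctTTTTATgtctttttaaa
The same window of Btg4 lacked AATAAA, the common polyadenylation signal, which 66.3% of genes held and which was present in the other 7. A match is a description of letters and not a site of binding.

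For each gene, the protein-coding gene with the most similar pattern over the 13 libraries was taken from 4589 genes with a mean of at least 10 TPM. Cpeb1 was most like Spg21 (Pearson r = 0.96 of log2 CPM), which was at 21.7 to 34.3 CPM in the first generation and at 56.1 to 107 CPM elsewhere. Pabpc1l was most like the zona pellucida gene Zp1 (r = 0.91), Lsm14b like the ribosomal protein gene Rpl19 (0.91), Ddx6 like Cd9 (0.90) and Zar1 like Slbp (0.89), which binds histone mRNA. Dazl was most like Acat1 (0.86), Ybx2 like Selenom (0.85), Btg4 like Dnajc21 (0.82), Cnot7 like Sbno1 (0.82) and Patl2 like Pla2g4c (0.77). These are the highest of many correlations over 13 libraries that share generations and doses, and are given as a description.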

How the data were processed

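RNA-seq of oocytes of P5 mice was made by the authors with a SMARTER kit on an Illumina HiSeq. The authors computed each estimated count per transcript with Salmon on transcripts of GRCm38 and deposited it without normalization between libraries. TPM values are likewise the authors' deposited Salmon output. The effective lengths in the same files, in bases, are also the authors' deposited values. The labels name paired-end and the series text single-end reads. Another 5 deposited tables hold the authors' DESeq2 1.24.0 comparisons (fold changes, p-values) or normalized counts pooled over replicates and were not used.

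The estimated counts were summed over GENCODE transcripts and rounded, leaving out 402 of 130740 transcripts (at most 0.495% of reads). Of the 46 transcripts of the 10 genes, 45 had the same length as in the reference. Sums were scaled with TMM, filtered with filterByExpr and tested with edgeR 4.0.16 (quasi-likelihood, all genes adjusted together), limma 3.58.1 or DESeq2 1.42.0 in R 4.3.3. SE is the log2 fold change divided by the root of F. Each time of 0.5 Gy was compared with 0 h over all 8 libraries, the doses over 11 libraries without 2.5 h, and generations over 6. Steps were tested on simulated counts with changes larger than those of the 10 genes, so the recovery of smaller changes was not tested. The floor for a transcript at 0 was 3 reads per library and reflects counting error alone.

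The genes, lists and alternatives were chosen with earlier results of these data known. The named genes are the 10 themselves, called genes of each list or else its 2 highest and 2 lowest late against early, the 1 most correlated gene, and transcripts with at least 10% of TPM. The coding-only levels, the test of transcripts, the paralogs and the element search were chosen after values were seen. Same-numbered libraries were not paired in the fits. The sequences of the Cpeb1 transcripts are not reported here.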

Additional observations from a re-analysis of the deposited data

How the results depend on the processing

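The count of the 10 genes called stayed at 0 in every alternative run for every comparison except second against first generation. There it was 1 (Cpeb1) with no filter on low counts (adjusted p 9.77e-09), DESeq2 (4.3e-07) and limma-voom (0.0424). It was also 1 with an offset for effective length (0.0402) and no time factor (0.0215), and 0 to 1 when 1 library was left out. From no filter to no time factor, these settings called 1.01%, 0.625%, 0.163%, 0.0572% and 0.15% of all genes, against 0.0924% in the main fit. The log2 fold change of Cpeb1 ranged from 1.20 to 2.22, the highest with the length offset. Late against early, values near 0 changed sign. These were Ybx2 with no filter (0.02), Cnot7 with the length offset (0.08), and, with the generation as a replicate block, Cpeb1 (-0.14) and Pabpc1l (-0.09). In the second against the first generation Btg4 was at 0.01 with the length offset. Leaving out 1 library in turn gave ranges of -0.15 to 0.07 for Ybx2, -0.01 to 0.44 for Cpeb1, -0.20 to 0.11 for Cnot7 and -0.37 to 0.59 for Pabpc1l late against early, and -0.02 to 0.43 for Dazl between generations. The correlations of deviations of same-numbered libraries were 0.13, 0.08 and 0.11, so the numbers were not taken to pair the samples. Leaving aside the third-generation comparison, the block changed no call of the 10 genes. Over all genes it gave 0, 1, 6 and 7 calls at 1, 2.5, 4 and 6 h in place of 0. For the third generation it gave 271 in place of 34. With the block that comparison is with the first generation alone, so these counts belong to different comparisons. Of 890 alternative values for these genes in 6 comparisons, 73 changed sign, but only 5 of the 371 for values over 0.3 in size. The order of levels was the same by TMM CPM per kilobase of effective length. That scale restates TPM up to 1 factor per library, so the match is no separate check. Ranks by coding TPM are given with the levels. Pabpc1l and Patl2 had the fewest reads, and the causes of these shifts were not tested.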

Other observations

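Over the 13 libraries, the highest Pearson r of log2 CPM among the 45 pairs was 0.65 for Zar1 and Pabpc1l. Next came 0.62 for Patl2 and Pabpc1l, 0.55 for Lsm14b and Btg4 and 0.50 for Zar1 and Patl2. The lowest values were -0.60 for Cpeb1 and Ddx6 and -0.59 for Ddx6 and Pabpc1l. How these compare with pairs of other genes was not tested. The libraries share generations and doses, and Pabpc1l and Patl2 rest on few reads.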
